A study of Mus musculus with 2 samples.

Results

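Nucks1, Scd2, Nedd4, Ywhag and Naa50 are 5 mouse genes whose messenger RNAs carried long, dense runs of read clusters near their 3′ ends in an iCLIP (individual-nucleotide resolution crosslinking and immunoprecipitation) experiment on FAM120A in mouse embryonic stem cells. They were chosen as messenger RNAs with long 3′ untranslated regions and many measured clusters in the list from the tagged library. By number of clusters their loci ranked 3rd, 4th, 7th, 8th and 9th, and loci of 56 and 49 clusters outside the 5 genes ranked higher. Cluster counts and their location near the 3′ end are therefore a description and were not tested. Members were the clusters on the gene's own strand inside a fixed mm9 window around each gene, 196 of 11670 tagged-list clusters (1.68%) and 0 of 1134 untagged-list clusters. Both lines, TT-FHFam120a and TT-Fam120a, carried a lentiviral Fam120a gene switched on by doxycycline (2.5 µg/mL), with FLAG and HA epitopes on the protein in the first and none in the second. Both were put through the same FLAG and HA immunoprecipitations, so the untagged library gives the recovery without the epitopes. There was 1 library per line, with no replicate, and neither the number of cell clones nor the total depth of the libraries is given in the sources used here. The files list clusters of an immunoprecipitate and not RNA levels, so the labelled cell type could not be checked against markers, and RNA abundance and binding per RNA molecule cannot be told apart.

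FAM120A binds RNA and is found together with Argonaute 2, the protein that carries microRNAs to their targets, most often in the 3′ untranslated region (3′ UTR) of a messenger RNA. In iCLIP, ultraviolet light joins a protein to the RNA it touches, and reverse transcription tends to stop at the joined base, so that piles of read starts mark contacts. A library from an untagged line shows what sticks to antibodies and beads. The genes encode unrelated proteins. Nucks1 encodes a DNA-binding nuclear phosphoprotein, Scd2 a stearoyl-CoA desaturase that makes monounsaturated fatty acids, Nedd4 a HECT-type ubiquitin ligase, Ywhag the 14-3-3 gamma adaptor that binds phosphorylated proteins, and Naa50 an N-terminal acetyltransferase.

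The windows were positions 133806000 to 133833500 of chromosome 1 for Nucks1, 44367500 to 44381500 of chromosome 19 for Scd2, 72510000 to 72598000 of chromosome 9 for Nedd4 and 44139500 to 44163500 of chromosome 16 for Naa50, all on the plus strand. Ywhag lay on the minus strand of chromosome 5, positions 136384000 to 136411500. The files name no genes. In RefSeq's GRCm38 gene table, used for names only, Scd2 overlapped Mir5114 and Ywhag overlapped Gm40346, and the other 3 genes overlapped no listed gene. No mm9 gene models were used, so exons, introns and the borders of the 3′ UTRs were not drawn, and the 3′ end of a gene is here the last 6000 nt of its window.

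Clusters lay almost wholly in the 3′ ends. The genes were chosen as dense in clusters with long 3′ UTRs, so this location was largely set by the choice and was not tested. The 3′ ends held 193 of the 196 clusters, or 6.43 per kb, and the remaining 151 kb of the windows held 3, or 0.0199 per kb. These are densities along the genome, and 82.0 of the 151 kb lay in Nedd4. Introns were not taken out, so the 2 densities do not compare parts of the messenger RNA. All clusters of Nucks1 (48), Scd2 (40), Ywhag (34) and Naa50 (36) were in the last 6000 nt. With no cluster elsewhere, the share outside could reach 7.41% in Nucks1, 8.76% in Scd2, 9.64% in Naa50 and 10.2% in Ywhag (upper Wilson 95% limits, counting error only). Nedd4 had 35 of 38 clusters there and was the gene with clusters elsewhere, 7.89% of them (2.72 to 20.8). With clusters at most 50 nt apart joined, this Nedd4 share was 30%, and with the 3′ end set to the last 4000 nt the Nucks1 share was 39.6%. The 3 Nedd4 clusters lay close to the 5′ end of the window, 79624 to 84294 nt upstream of the run of the others. The one at 72510826 to 72510871 had 14 tagged reads and 1 untagged read. Those at 72515419 to 72515444 and at 72515496 to 72515521 had 5 reads each, the fewest a listed cluster can have, against 0 untagged reads. The opposite strand of the 5 windows held 0 clusters of either list.

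In each gene the 3′-end clusters formed a single tract, in which no gap between neighbours passed 1000 nt. The Nucks1 tract ran from 133827830 to 133832733 and was the longest, with 4904 nt. The Scd2 tract ran from 44377789 to 44380845 (3057 nt) and the Naa50 tract from 44159767 to 44162358 (2592 nt). The Nedd4 tract ran from 72595120 to 72597618 (2499 nt) and the Ywhag tract from 136384374 to 136386864 (2491 nt). The order by density was not the order by number. Nucks1 had the most clusters but the lowest density along its tract, 9.79 per kb, while Scd2 had 13.1, Ywhag 13.6, Naa50 13.9 and Nedd4 14.0 per kb. Over a fixed 6000 nt the order turned, with 8.0 per kb in Nucks1 and 5.67 in Ywhag, because this length counts empty sequence beyond the shorter tracts.

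Set beside the 221 other loci of at least 10 tagged-list clusters, these tracts were long and, apart from Nucks1, dense. The genes were chosen in part by number of clusters, which is density times length. The ranks below therefore describe that choice and were not tested. The other loci had a median of 9.33 clusters per kb (middle 50% 6.7 to 12.0, range 2.73 to 22.3) over a median of 1584 nt. Among all 226 such loci, Nedd4 ranked 34th, Naa50 35th, Ywhag 38th, Scd2 41st and Nucks1 105th in clusters per kb. Few of the loci denser than these were long. Among the 77 loci of 2000 nt or more, the ranks were 3 for Nedd4, 4 for Naa50, 5 for Ywhag, 6 for Scd2 and 12 for Nucks1. Clusters covered 55.5% of the tract in Nedd4, 50.9% in Ywhag, 48.7% in Scd2, 44.1% in Naa50 and 35.8% in Nucks1, against a median of 31.9% in the other loci.

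**Figure D1:**
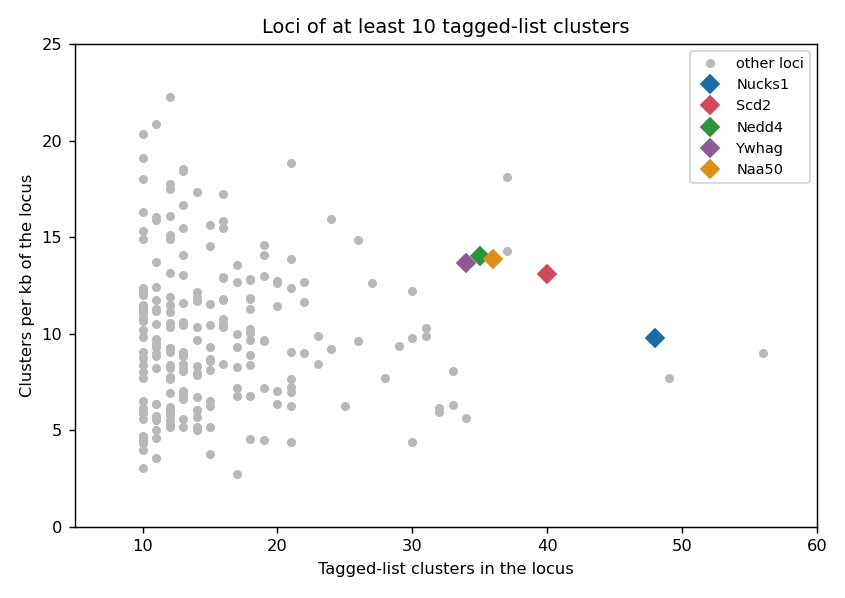
Each point is a tagged-list locus of at least 10 clusters, with its number of clusters on the x axis and its clusters per kb on the y axis; grey circles are the 221 other loci and diamonds the 5 genes. Ywhag, Nedd4, Naa50 and Scd2 sit at 13.1 to 14.0 clusters per kb, and Nucks1, with 48 clusters, sits at 9.79.

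Neighbouring clusters were close. Over the 188 gaps between neighbours within the tracts the median gap was 15 nt in Nedd4, 16 nt in Naa50, 23 nt in Ywhag, 25 nt in Scd2 and 34 nt in Nucks1, and 141 gaps (75%) were at most 50 nt. It is not known whether clusters this close are separate contacts. Joined across gaps of up to 50 nt, the 193 clusters made 52 blocks, 17 of them in Nucks1, 13 in Scd2, 10 in Ywhag, 7 in Nedd4 and 5 in Naa50. Blocks were fewest in Naa50, which had more 3′-end clusters (36) than Nedd4 (35) or Ywhag (34). Its largest block, positions 44161704 to 44162358, held 15 clusters in 655 nt. Of the 17 Nucks1 blocks 8 were single clusters.

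The authors' names for the clusters were unevenly represented. Clusters named region C2 alone made up 158 of the 196 (80.6%), where they were 42% of the tagged list, and clusters named region B alone made up 17 (8.67%, against 49.1%). The other 221 dense loci stood at 62.7% and 25.3%. Nucks1 held 10 of the 17 region B clusters, and Ywhag held 0. The letters are not explained in the sources used here. Clusters joined from several named regions numbered 91 (46.4%), with up to 8 names in a cluster of Scd2. They were 24.6% of the list, 39.9% of clusters in the other dense loci and 36.2% of all region C2 clusters. No member was named by a splice junction.

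Reads per cluster differed less between the genes than the highest clusters did. The median was 17.5 tagged reads in Scd2 (95% interval of the median 11 to 20) and in Nedd4 (14 to 21), 17 in Naa50 (12 to 20), 14.5 in Ywhag (11 to 18) and 11 in Nucks1 (9 to 15), and the intervals of every pair of genes overlapped. Over the 196 clusters the median was 15 (13 to 17), against 8 in the tagged list and 10 in the other dense loci. Higher medians were not particular to these genes. Among the 226 dense loci Nedd4 ranked 25th, Scd2 34th, Naa50 35th, Ywhag 46th and Nucks1 76th in median reads. Other loci of 56, 49, 37, 37 and 34 clusters had medians of 13, 15, 31, 18 and 35.5 reads. Clusters of 20 or more reads made up 67 of the 196, or 34.2% (27.9 to 41.1), where they were 17.1% of the list and 21.8% of the other dense loci. Their share was highest in Scd2, 17 of 40, and lowest in Nucks1, 12 of 48. At the upper end the highest count was 262 in Ywhag, 144 in Nucks1, 85 in Nedd4, 57 in Scd2 and 44 in Naa50. Ywhag and Nucks1 thus held the highest clusters, although their medians were the 2 lowest of the 5.

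**Figure D2:**
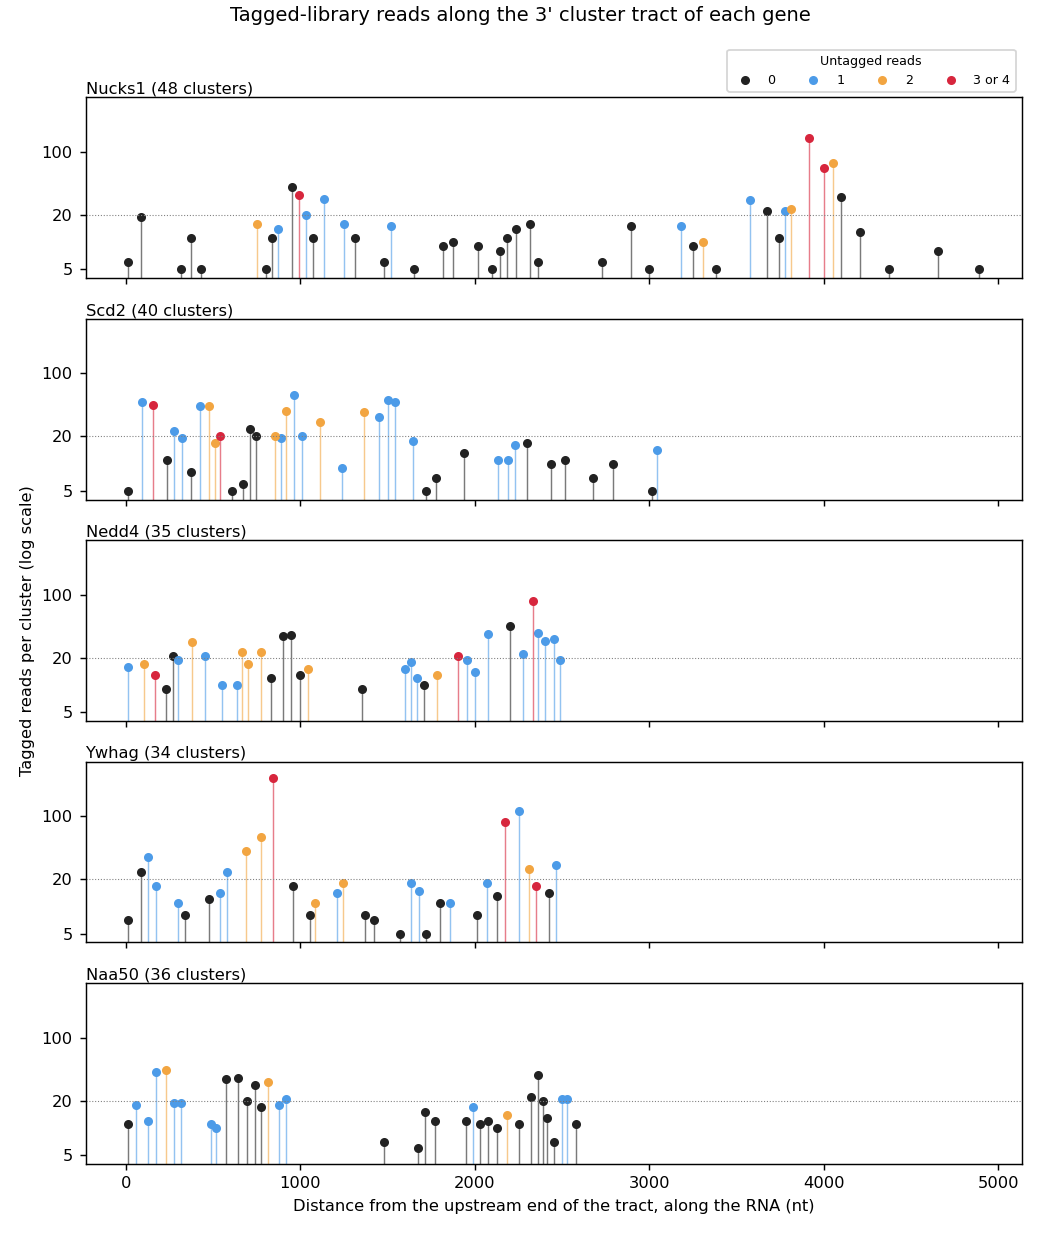
Tagged reads of each cluster (y axis, log scale) against its distance along the RNA from the upstream end of the tract (x axis, nt), with 1 panel per gene; colours give the untagged reads before depth scaling and the dotted line marks 20 reads. Clusters of 20 or more reads gather near 1000 and 4000 nt in Nucks1, in the first 1600 nt in Scd2 and in 2 separate groups in Naa50. In Ywhag they lie in separate groups of 2, 4 and 4 clusters. The 3 Nedd4 clusters far upstream are not drawn.

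High clusters were not spread evenly along the tracts. In Scd2, 16 of the 17 clusters of 20 or more reads lay upstream of the midpoint of the tract and 1 downstream, while clusters of any size split 25 and 15. The median was 20 reads upstream and 11 downstream. By these counts Scd2 had the most one-sided tract of the 5. In Nucks1, 8 of the 12 high clusters lay in a block of 563 nt, positions 133831376 to 133831938, and 4 lay in a block of 410 nt, positions 133828570 to 133828979. Between them, a block of 7 clusters at 133829836 to 133830218 reached 16 reads at most and had 0 untagged reads at each cluster. In Ywhag, 8 of the 10 high clusters lay in 2 blocks, 4 at 136386007 to 136386398 and 4 at 136384374 to 136384865, at the 3′ edge of the tract. In Naa50, clusters thinned out in the middle. Of its 36 clusters 15 lay in the first part of the tract when it was divided into 3 equal parts, 5 in the next and 16 in the last, around a gap of 538 nt, the longest in any of the 5 tracts. Nedd4 likewise had 14, 7 and 14, and 6 of its 15 high clusters lay in its last block, positions 72597284 to 72597618.

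The untagged library had few reads at these positions. Before depth scaling it had 0 reads at 95 of the 196 clusters, 1 at 65, 2 at 25, 3 at 8 and 4 at 3, and never more. The highest was 4 in Nucks1, Scd2 and Nedd4, 3 in Ywhag and 2 in Naa50. In the tagged list 93.5% of clusters had at most 4 untagged reads, a share largely set by the listing rule for clusters of few reads. Among clusters of 20 or more reads, all 67 of the 5 genes had at most 4 untagged reads, where 63.6% did in the list and 92.4% in the other dense loci. Such low untagged reads were common in dense loci, as 203 of the other 221 (91.9%) also had at most 4 at every cluster. The nearest untagged-list cluster on the gene's strand lay 166705 nt from the Ywhag window and farther from the other 4.

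The share of clusters with 0 untagged reads differed between the genes. It was 68.8% in Nucks1 (Wilson 95% interval 54.7 to 80.1), 58.3% in Naa50 (42.2 to 72.9), 41.2% in Ywhag (26.4 to 57.8), 40% in Scd2 (26.3 to 55.4) and 28.9% in Nedd4 (17.0 to 44.8), against 69.9% of the tagged list. This share depends on the reads of a cluster. A listed cluster of 8 or fewer reads always had 0 untagged reads, and Nucks1 had 15 such clusters where Nedd4 had 2 and Naa50 3. Among clusters of over 8 reads the share was 54.5% in both Nucks1 and Naa50 (18 of 33 each, 38.0 to 70.2), 25% in Scd2 (8 of 32) and in Nedd4 (9 of 36), and 23.1% in Ywhag (6 of 26), while it was 39.2% in the list. At 20 or more reads Naa50 stood highest with 7 of 13 clusters (53.8%, 29.1 to 76.8), where Nucks1 had 3 of 12 and Ywhag 1 of 10, and the list had 16.1%. In the other dense loci the share was 66.0% over all clusters, 44.0% at over 8 reads and 23.8% at 20 or more reads. The intervals of single genes overlap at this size. Clusters of 1 library are not replicates, so the difference between genes was not tested.

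**Figure D3:**
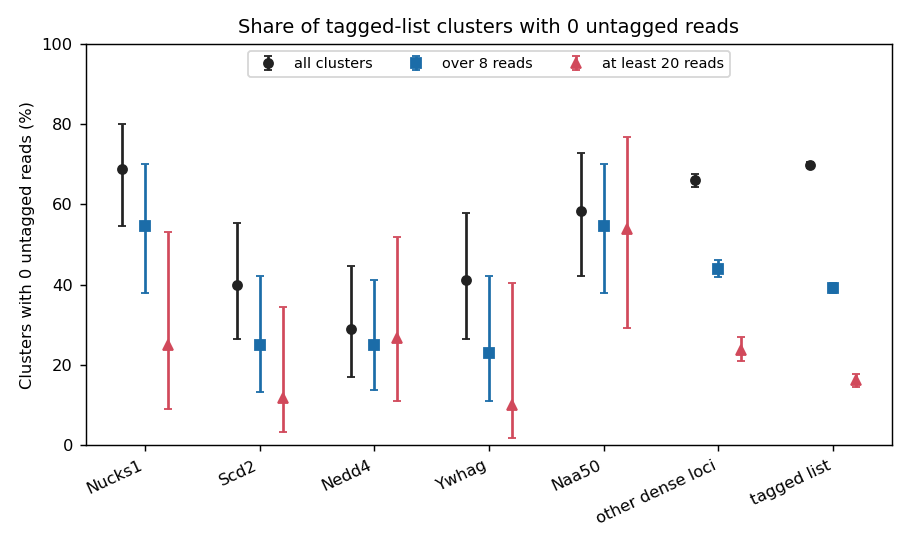
Percent of tagged-list clusters with 0 untagged reads (y axis) in each gene, in the 221 other dense loci and in the tagged list, over all clusters (circles), clusters of over 8 reads (squares) and clusters of at least 20 reads (triangles), with Wilson 95% intervals. The share falls with read count in Nucks1, from 68.8% to 25%, and stays between 53.8% and 58.3% in Naa50.

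Ratios of tagged to untagged reads had overlapping intervals in the 5 genes. The listed value is the log2 of tagged over scaled untagged reads after adding 1 to each, and it is the authors'. Its median was 3.54 in Naa50 (2.87 to 3.7), 3.17 in Nucks1 (2.58 to 3.5), 3.12 in Ywhag (2.58 to 3.58), 3.0 in Scd2 (2.74 to 3.46) and 2.74 in Nedd4 (2.5 to 3.32), and all 5 intervals overlapped. Where untagged reads are 0 this value is set by the tagged reads and the added 1, so it is not a measured fold. A value of at least 3 was listed for 103 of the 196 (52.6%), where 38.7% of the tagged list and 51.3% of clusters in the other dense loci had one. Among the 67 clusters of 20 or more reads it was listed for 48 (71.6%), against 46.3% in the list and 72.9% in the other dense loci, and the median was 3.5 (3.32 to 3.88), against 2.87 and 3.52. The 5 genes thus lay above the list and near the other dense loci. When unscaled reads were tested against the share expected from the depth factor (exact binomial test, one-sided), 176 of the 196 clusters (89.8%) had a p under 0.05, where 74% of the list, 84.6% of clusters in the other dense loci and 90.1% of all region C2 clusters did. The count was 36 of 36 in Naa50, 35 of 38 in Nedd4, 36 of 40 in Scd2, 31 of 34 in Ywhag and 38 of 48 in Nucks1. A cluster of 5 reads could not pass, since 5 against 0 untagged reads gives p = 0.0779 in this binomial test. Such clusters numbered 9 in Nucks1, 4 in Scd2, 2 each in Nedd4 and Ywhag, 0 in Naa50 and 2714 in the list. The shares that passed thus depend on the number of 5-read clusters. That test compares 2 libraries and not the conditions, and the list was itself chosen for enrichment.

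The 2 highest clusters of Ywhag had the largest ratios among the clusters named here that had untagged reads. The cluster at 136386007 to 136386032 had 262 tagged reads and 3 untagged reads, 58.2 times the untagged level after division by the depth factor (exact 95% interval 19.7 to 284). The cluster at 136384576 to 136384647 had 113 tagged reads and 1 untagged read, a ratio of 75.3 (13.2 to 3000), and the one at 136384659 to 136384723 had 86 and 3, a ratio of 19.1 (6.32 to 94.4). These 3 clusters were both the highest and those of lowest listed p in the gene, and their intervals overlap.

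In Nucks1 the 3 leading clusters were neighbours within 227 nt. The cluster at 133831679 to 133831809 had 144 tagged and 4 untagged reads, a ratio of 24.0 (9.17 to 89.2). The next, at 133831819 to 133831844, had 67 and 3 (ratio 14.9, interval 4.88 to 74.0), and the one at 133831861 to 133831905 had 76 and 2 (ratio 25.3, interval 6.77 to 213). Reads at such close clusters may be shared, so they are not separate measurements.

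Nedd4 had its highest cluster at 72597440 to 72597469, near the 3′ edge of the tract, with 85 tagged and 3 untagged reads and a ratio of 18.9 (6.24 to 93.4). The cluster at 72597284 to 72597354 had 45 tagged reads against 0. That is at least 9.99-fold higher against a floor of 3 unscaled untagged reads per cluster, while its exact interval began lower, at 7.8. At 72596053 to 72596078, 36 reads stood against 0, which is at least 8-fold higher by the same floor (interval from 6.17). The cluster at 72597471 to 72597496, next to the highest, had 38 reads against 1. High clusters of Nedd4 were thus found with and without untagged reads.

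In Scd2 the 3 leading clusters had 1 untagged read each and similar heights. They were at 44378732 to 44378778 with 57 tagged reads (ratio 38.0, interval 6.55 to 1526), at 44379281 to 44379306 with 51 (ratio 34.0, 5.83 to 1368) and at 44377838 to 44377923 with 48 (ratio 32.0, 5.47 to 1289). With a single untagged read the upper bounds are wide.

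Naa50 had no high peak, and its clusters of lowest listed p had 0 untagged reads. They had 38 tagged reads at 44162114 to 44162139, 36 at 44160389 to 44160435 and 35 at 44160331 to 44160356, at least 8.44-fold, 8-fold and 7.77-fold higher against the floor of 3 reads, while their exact intervals began lower, at 6.54, 6.17 and 5.99. Its 2 highest clusters had untagged reads, 44 against 2 at 44159983 to 44160014 (ratio 14.7, 3.82 to 125) and 41 against 1 at 44159921 to 44159955 (ratio 27.3, 4.64 to 1105). Naa50 ranked 10th in median log2 ratio, 4.39, among the 70 dense loci with at least 5 clusters of 20 or more reads, while Ywhag ranked 28th, Scd2 and Nedd4 41st and Nucks1 45th. The Naa50 interval, 2.87 to 5.17, included the medians of the other 4 genes, which were 3.44 to 3.72.

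Reads were spread over several positions in most high clusters. Of the 67 clusters of 20 or more reads, 57 had at most 50% of their reads at the highest position (85.1%), against 56.4% in the tagged list and 84.2% in the other dense loci. The median share at the highest position was 30% (26.1 to 34.1), against 45.2% in the list and 32.4% in the other dense loci. By gene it was 36.4% in Nucks1, 31.9% in Ywhag, 30% in Scd2, 29% in Nedd4 and 22.7% in Naa50. Over 75% of reads at a single position was found in 1 of the 67, the Naa50 cluster at 44160331, with 27 of 35 reads (77.1%). In the list 546 of 1995 clusters of this size were of that kind, and in the other dense loci 11 of 752 (1.46%), close to the 1.49% of the 5 genes. The highest cluster of a gene was often among its more concentrated ones. It had 96 of 144 reads at its highest position in Nucks1 (66.7%), 58 of 85 in Nedd4 (68.2%), 42 of 57 in Scd2 (73.7%) and 24 of 44 in Naa50 (54.5%). The highest Ywhag cluster differed, with 72 of 262 reads there (27.5%) in a cluster of 26 nt. The count of a cluster can include reads that start outside it, which lowers this share.

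**Figure D4:**
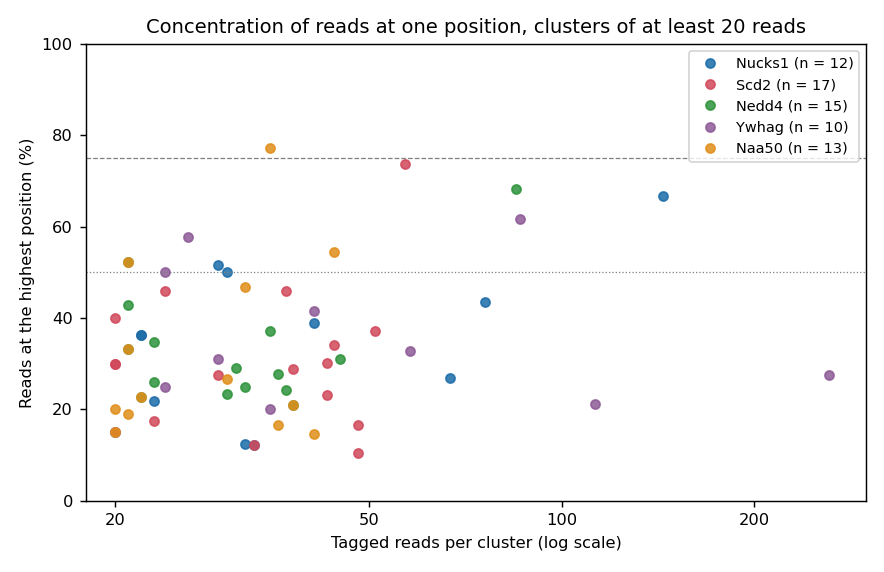
Percent of a cluster's reads at its highest position (y axis) against its tagged reads (x axis, log scale) for the 67 clusters of at least 20 reads, coloured by gene; lines mark 50% (dotted) and 75% (dashed). Of the 67, 57 lie at or under 50%, and 1 Naa50 cluster lies above 75%.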

How the data were processed

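Coordinates are in mm9, per the submitters' processing notes. How reads were aligned, clustered and freed of PCR duplicates is not given in the sources used here. The authors deposited 2 lists that give, per cluster, a read count at its highest position and 3 joined values without a header. From the values these are the cluster's reads, the log2 ratio of own to other reads with 1 added to each, and the p of a one-sided exact binomial test at an even split. The other library's reads were recovered as the whole number that gives back both ratio (tolerance 0.006) and p (tolerance 0.0001, or 0.001 in relative terms for p under 0.0001). This succeeded for 100% of clusters, with 1 candidate for every member. In the tagged list the recovered numbers were rounded multiples of a factor between 1.5 and 1.502. The midpoint, 1.501, is read as the depth factor, and untagged reads are printed unscaled. Counts at the highest position were read from the last column, which differed from the fifth column at 2 members. Reads were not summed over clusters, since neighbours can share them.

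A cluster belonged to the 3′ end by its centre. Loci joined clusters of a strand at most 1000 nt apart. Intervals of ratios cover the counting error of reads alone, and PCR copies may be among the reads. Those of shares and medians treat clusters as independent, although neighbours can share reads. The recovery of the other library's reads and the joining of clusters into loci were tested on simulated data, and the other steps were not. Python 3.11.15, scipy 1.17.1 and matplotlib 3.10.9 were used. In each gene the 3 clusters of lowest p, the 3 of most reads and all clusters outside the 3′ end were named. The genes, windows and tests were chosen with earlier results of these data known. Cluster sequences are not analysed here.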

Additional observations from a re-analysis of the deposited data

How the results depend on the processing

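Of 30 alternatives for the 5 genes together 19 stayed within their limits (the main value's 95% interval, or for counts and densities 1.5 times) while 11 moved, and of 134 for single genes 105 stayed and 29 moved. Where the 3′ end was the last 4000 nt, the share of clusters outside it was 11.2%, since the Nucks1 tract is longer than that. Over the tracts alone the density was 12.4 per kb. Joining clusters at most 50 nt apart left 52 in the 3′ ends, 1.73 per kb, with 5.45% outside. In the 50% of the list with the lower p the median was 18 reads. The share with 0 untagged reads was 35.1% at 10 or more reads and 25.4% at 20 or more, and the median log2 ratio 3.38 and 3.5. Requiring 20 clusters left 41 other dense loci. Where fewer clusters did not enter by construction, the cause was not tested. No paired analysis was possible because the lines have 1 library each. With at most 4 untagged reads at a cluster, ratios rest on few reads and have wide intervals.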
